A study of Mus musculus with 24 samples.

Results

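Tead4, Cdx2, Gata3, Elf5, Tfap2c, Ascl2, Bmp4, Krt8 and Krt18 are 6 transcription factors, 1 secreted ligand and 2 keratins of the early trophoblast lineage. These 9 genes, of 21887 protein-coding genes in the RefSeq table of assembly GRCm38.p6, were chosen by name. For each, the called peaks of H3K4me1 and H3K4me2 were listed over the gene span, within 2500 bp of a gene end and within 10 kb of a gene end, where a gene end is either boundary of the RefSeq span. The peaks came from CUT&RUN, in which a nuclease tethered to an antibody cuts and releases the bound chromatin for sequencing. Mouse cells of strain background C57BL/6 were profiled at 2 stages, day 6 embryoid bodies (EB), which are aggregates of differentiating cells grown in serum, and embryonic stem (ES) cells kept with LIF. At each stage the cells were Prdm16 KO or wild type, and antibodies to PRDM16, H3K4me1 and H3K4me2 gave 24 libraries in 12 groups of 2. The groups used here for the marks are H3K4me1 and H3K4me2 in EB KO, EB wild type, ES KO and ES wild type. The labels do not say how the KO was made, whether it is 1 clone, or whether replicate libraries were made from different cultures. Every p-value here is set by library-to-library spread alone, and that spread may be technical.

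Trophoblast is the outer lineage of the preimplantation embryo and forms the fetal part of the placenta. TEAD4, with its coactivator YAP1, acts above CDX2 and GATA3 in the outer cells, ELF5, TFAP2C and EOMES maintain trophoblast stem cells, and ASCL2 is needed for the spongiotrophoblast. BMP4 is a signalling ligand used to drive human pluripotent cells towards trophoblast in culture, and KRT8 and KRT18 pair into the intermediate filaments of simple epithelia such as the trophectoderm. H3K4me1 is best known from enhancers, and H3K4me2 from enhancers and promoters. PRDM16 is a chromatin-associated transcriptional regulator, best known from brown fat and stem cells.

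List length differed between libraries, from 5990 to 15435 peaks (13.1 to 37.1 Mb) with H3K4me1 and from 13818 to 32874 peaks (39.1 to 81.0 Mb) with H3K4me2. The depth of each library is unknown, because the lists give no read totals, and a longer list can come from more reads as well as from more marked chromatin. The H3K4me1 lists of EB KO libraries were the shortest, with 8943 and 5990 peaks against 14082 and 13260 in EB wild type. The H3K4me2 lists of ES KO libraries were the longest, with 29138 and 32874 peaks against 24600 and 22615 in ES wild type. The titles place H3K4me2 ES KO 2 and H3K4me2 EB WT 2 in a library series other than that of the remaining 14 H3K4me libraries. The deletion of Prdm16 was not checked in these lists. PRDM16 libraries labelled KO held 173 and 187 peaks in EB and 586 and 499 in ES, against 146 and 258 in EB wild type and 331 and 191 in ES wild type. By title, PRDM16 ES KO 1 (586 peaks) and ES WT 2 (191 peaks) are of another library series than the remaining PRDM16 lists. No PRDM16 list had a peak at any of the 9 genes or within 10 kb of one, and 115 to 451 genes had such a peak in each list. Peaks do not measure expression, and the stage labels were read against a few markers only. Pou5f1, a core pluripotency factor, had a gene-end peak (within 2500 bp of either end) in 2 of 4 EB and 0 of 4 ES H3K4me1 lists, and in 3 of 4 EB and 0 of 4 ES H3K4me2 lists. Nanog, another core pluripotency factor, had one in 4 of 4 EB and 0 of 4 ES H3K4me1 lists and in 2 of 4 EB and 0 of 4 ES H3K4me2 lists, so neither carried one in any ES list. Zfp42, a marker of naive ES cells, ran the other way, with 0 of 4 EB and 4 of 4 ES H3K4me1 lists and 2 of 4 EB and 4 of 4 ES H3K4me2 lists. Tfcp2l1, another naive pluripotency factor, had one in 0 of 4 EB and 3 of 4 ES H3K4me1 lists, and in 4 of 4 EB and 3 of 4 ES H3K4me2 lists. Over 8 pluripotency genes, 2 to 4 had one in H3K4me1 EB lists and 2 to 3 in H3K4me1 ES lists, 2 to 6 in H3K4me2 EB lists and 2 to 4 in H3K4me2 ES lists. Their summed coverage was 10.3 to 21.0 kb in H3K4me1 EB lists and 17.9 to 26.6 kb in H3K4me1 ES lists. It was 14.4 to 36.2 kb in H3K4me2 EB lists and 25.2 to 37.3 kb in H3K4me2 ES lists, and the stages overlapped with both marks. Of 5 neuroectoderm genes, 1 to 2 had a gene-end peak in H3K4me1 EB lists and 3 to 4 in H3K4me1 ES lists, and of 5 endoderm genes 1 to 2 in EB and 3 in ES. With H3K4me2 the counts were 1 to 3 in EB and 2 to 3 in ES for neuroectoderm, and 1 to 3 in EB and 3 to 4 in ES for endoderm. Of 7 genes of primitive streak and mesoderm, 2 to 5 had one in H3K4me1 EB lists and 1 to 4 in H3K4me1 ES lists, and 3 to 5 in H3K4me2 EB lists and 4 to 6 in H3K4me2 ES lists. Of 5 fibroblast genes, which would mark feeder cells, 4 to 5 had one in H3K4me2 EB lists and 4 in H3K4me2 ES lists. In H3K4me1 lists 1 to 3 of them had one in EB and 2 to 3 in ES. Over all protein-coding genes, 53.3% of gene and library pairs in EB and 55.8% in ES had one with H3K4me2. The same shares with H3K4me1 were 13.1% and 21.1%. The part of other cell types in the stage differences was not tested. Of 6 genes of mature trophoblast (Tpbpa, Gcm1, Prl3d1, Prl2c2, Prl3b1 and Synb), only Gcm1 had a gene-end peak in any of the 16 lists, in 1 H3K4me1 EB list.

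The 9 genes were marked in many of the ES lists and in fewer of the EB lists. The loci, meaning each gene span with 10 kb on either side, held 144 peaks, 39 in EB lists and 105 in ES lists. These peaks merged into 29 sites, of which 18 were present in EB, 25 in ES, 14 in both stages and 21 in both marks. Only 6 sites were found in 8 or more of the 16 lists, 19 were in 2 to 7 lists and 4 were in 1 list. A gene-end peak was present in 19 of 72 gene and library pairs in EB and in 36 of 72 in ES. With H3K4me1 the share of pairs with a gene-end peak was above that of all protein-coding genes, at 22.2% against 13.1% in EB and at 52.8% against 21.1% in ES. With H3K4me2 it was below, at 30.6% against 53.3% in EB and at 47.2% against 55.8% in ES. Embryoid bodies hold a mixture of cell types, so fewer marked cells and less of the mark per cell cannot be told apart. The libraries rather than the genes are the replicates, so these shares are descriptions without a test.

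**Figure D1:**
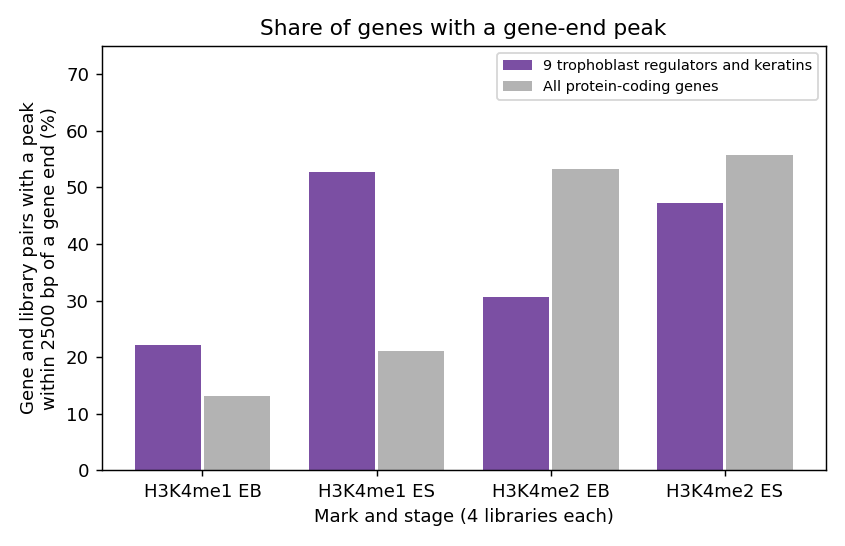
Share of gene and library pairs (percent, y axis) with a peak within 2500 bp of a gene end, for H3K4me1 and H3K4me2 in EB and ES (x axis), each over 4 libraries. Purple bars are the 9 trophoblast regulators and keratins and grey bars are all protein-coding genes. The purple bar is above the grey one for H3K4me1 (52.8% against 21.1% in ES) and below it for H3K4me2 (30.6% against 53.3% in EB).

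The peaks listed at these genes were wider at the median than all peaks of their lists. In EB their median width was 3483 bp with H3K4me1, against 1655 bp over all peaks of those lists, and 3758 bp with H3K4me2, against 2761 bp. In ES it was 2700 bp with H3K4me1, against 2071 bp over all peaks, and 2814 bp with H3K4me2, against 2166 bp. Listing by overlap with a window favours wide peaks, and no width of peaks listed likewise at other genes is given. Each peak carries a score from the authors, of unstated unit and at least 50, which is used here only to rank a peak within its own list. The median rank of the members' peaks was the 37th percentile in H3K4me1 EB, the 52nd in H3K4me1 ES, the 26th in H3K4me2 EB and the 47th in H3K4me2 ES, so many of the EB peaks lie low in their lists.

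**Figure D2:**
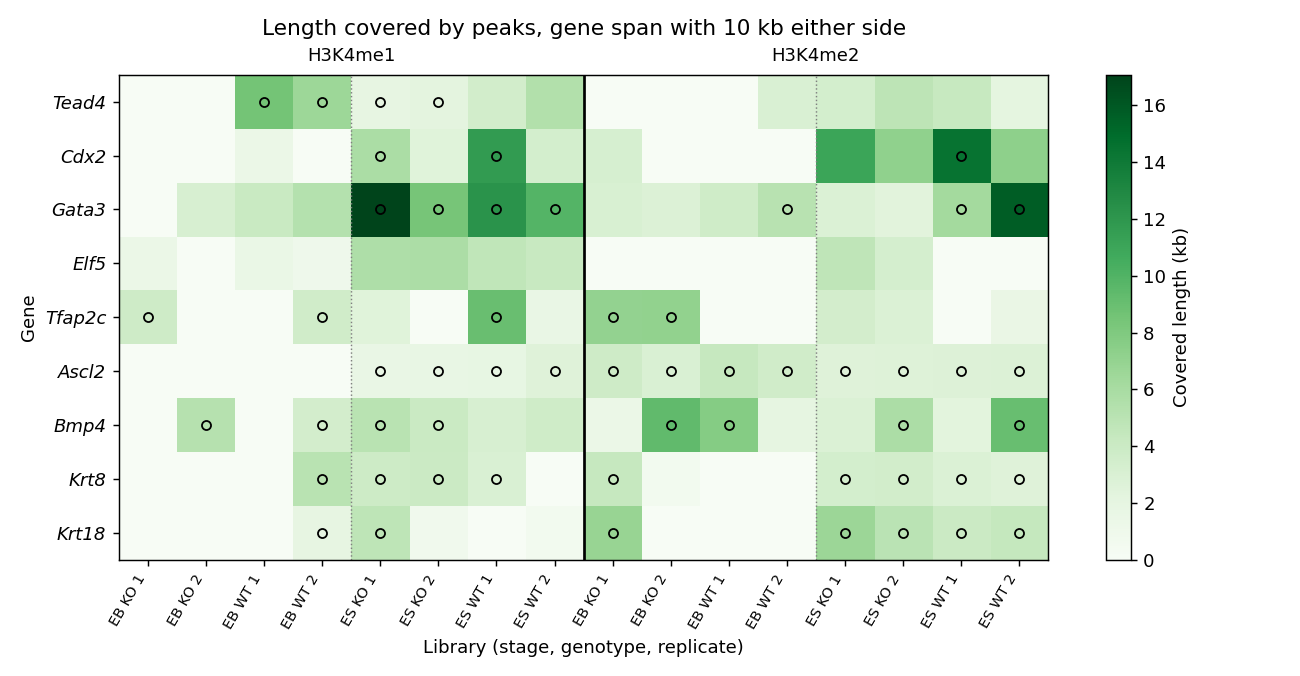
Length covered by called peaks (kb, colour scale) over each gene span with 10 kb on either side, for the 9 genes (rows) in the 16 H3K4me libraries (columns, by mark, stage, genotype and replicate). Open circles mark a peak within 2500 bp of a gene end. Cdx2 is covered by 2.51 to 14.4 kb in every ES library and by 0 in 6 of the 8 EB libraries, and Ascl2 is covered in all 8 H3K4me2 libraries.

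Tead4 (chr6:128227143-128300813) was marked at different places in EB and ES. TEAD4 is the DNA-binding partner of YAP1 at the top of this group. With H3K4me1 the covered length at the locus was 0 and 0 kb in EB KO, against 8.53 and 6.57 kb in EB wild type. In ES it was 1.87 and 2.14 kb in KO, against 3.51 and 5.42 kb in wild type. KO was thus below wild type at both stages without overlap, although the smallest p that 2 against 2 libraries allow is 0.33 in the exact permutation test, two-sided. The positions differed between the 2 stages. A site of 6.62 kb at the upper-coordinate end of the gene, chr6:128294001-128300623, held an H3K4me1 peak in both EB wild-type libraries and in no other list. Within the 4 H3K4me1 EB lists alone, 14.2% of merged regions were wild-type-only (in both wild-type libraries and no KO one). Another site over the opposite end, chr6:128225991-128228817, held an H3K4me1 peak in both ES KO libraries and in no other list. Within the 4 H3K4me1 ES lists alone, 4.75% of merged regions were KO-only (in both KO libraries and no wild-type one). The tables used here give no strand or promoter for Tead4, so these ends are named by coordinate. A further site, inside the gene, chr6:128253481-128258898, was marked by H3K4me2 in all 4 ES libraries and by H3K4me1 in both ES wild-type libraries and EB WT 1, but by H3K4me1 in neither ES KO library. H3K4me2 covered 0 and 0 kb in EB KO, against 0 and 2.96 kb in EB wild type. It covered 3.40 and 4.82 kb in ES KO, against 4.21 and 2.13 kb in ES wild type, where the groups overlap.

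Cdx2 (chr5:147300900-147307249), a homeobox factor required for the trophectoderm, was marked in ES and almost bare in EB. H3K4me1 covered 0 and 0 kb in EB KO, against 1.39 and 0 kb in EB wild type. In ES the same mark covered 5.86 and 2.51 kb in KO, against 11.7 and 3.40 kb in wild type. H3K4me2 covered 3.15 and 0 kb in EB KO, against 0 and 0 kb in EB wild type. The ES lengths were 11.04 and 7.17 kb in KO, against 14.4 and 7.28 kb in wild type. Every ES library was above every EB library of its mark. The most frequent site, chr5:147291931-147297291, lies 3609 bp below the gene in a stretch with no protein-coding gene and was present in all 8 ES libraries, H3K4me1 EB WT 1 and H3K4me2 EB KO 1. The start of the gene (chr5:147307249, minus strand) was covered in 3 ES libraries, H3K4me1 KO 1, H3K4me1 WT 1 and H3K4me2 WT 1, by the site chr5:147303516-147308473. A further site, chr5:147310601-147316412, overlaps the neighbouring gene Urad. It was present in all 4 H3K4me2 ES libraries, and with H3K4me1 in both ES wild-type and neither ES KO library, a pattern of 4.32% of merged H3K4me1 ES regions.

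Gata3 (chr2:9857078-9887953), a zinc finger factor that acts beside CDX2 in trophectoderm, was the locus marked in most lists, 15 of 16. H3K4me1 covered 0 and 3.10 kb in EB KO, against 4.08 and 5.27 kb in EB wild type. ES libraries had 17.1 and 8.37 kb in KO, against 12.3 and 9.85 kb in wild type. The EB genotypes did not overlap and the ES genotypes did. H3K4me2 covered 3.06 and 2.76 kb in EB KO, against 3.69 and 5.13 kb in EB wild type. The ES lengths were 2.82 and 2.36 kb in KO, against 6.23 and 15.7 kb in wild type. The site shared most widely, chr2:9893727-9900206, lies 5774 bp above the gene and was present in 14 libraries of both stages. Inside the gene, chr2:9879548-9885560 was marked by H3K4me1 in all 4 ES libraries and in no EB library. Of merged H3K4me1 regions, 24% in KO and 16.2% in wild type were in both ES libraries and neither EB one. Over the upper end, chr2:9886594-9890577 was marked by H3K4me2 in both ES wild-type and neither ES KO library, a pattern of 1.83% of merged H3K4me2 ES regions. H3K4me1 peaks there were found in ES KO 1, KO 2 and WT 2. No library had a peak over the 300 bases of the RefSeq promoter of Gata3, which lie within the gene span used here.

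Elf5 (chr2:103412098-103450989), an ETS factor that sustains trophoblast stem cells and is methylated and silent in ES cells, had no gene-end peak in any library. Its peaks lay inside the gene and at 1 site above it. H3K4me1 covered 1.39 and 0 kb in EB KO, against 1.495 and 1.03 kb in EB wild type. In ES it covered 5.63 and 5.80 kb in KO, against 4.64 and 4.19 kb in wild type, a pair of groups that did not overlap. H3K4me2 covered 0 kb in all 4 EB libraries. In ES the same mark covered 4.73 and 3.29 kb in KO, against 0 and 0 kb in wild type. The H3K4me2 peaks shared by both ES KO libraries lay at 2 sites of the gene body, and 11.7% of merged H3K4me2 ES regions were likewise in both KO and neither wild-type library. One of these, chr2:103433727-103438217, also held H3K4me1 in all 4 ES libraries, in EB KO 1 and in EB WT 1. The other, chr2:103423559-103424974, covers the second of the 2 RefSeq promoters of Elf5 (start chr2:103424068, plus strand). H3K4me2 was called there in ES KO 1 and KO 2 and in neither ES wild-type library, and H3K4me1 was called in EB WT 2 and ES WT 1. Of 14720 RefSeq promoters with an H3K4me2 peak in at least 1 of the 4 ES lists, 3.89% had one in both KO and neither wild-type library. A site 7391 bp above the gene, chr2:103458380-103460649, overlaps Cat, the catalase gene, and held H3K4me1 in all 4 ES libraries and H3K4me2 in ES KO 1.

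The marked promoter of Elf5 is shown because it is the promoter among the 9 genes whose H3K4me2 peak was called in both ES KO libraries and in neither ES wild-type library. The sequence is that of RefSeq, GRCm38.p6, chr2:103423818-103424117, plus strand, with 250 bases before and 50 after the start.
Elf5, second promoter: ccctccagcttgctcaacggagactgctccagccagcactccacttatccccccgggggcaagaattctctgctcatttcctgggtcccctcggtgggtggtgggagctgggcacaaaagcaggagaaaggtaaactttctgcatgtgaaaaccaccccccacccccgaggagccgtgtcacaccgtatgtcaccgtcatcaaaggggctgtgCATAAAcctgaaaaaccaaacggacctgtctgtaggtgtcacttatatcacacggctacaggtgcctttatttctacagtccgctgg
Capitals mark CATAAA, the reverse complement of TTTATG, the letters searched for CDX factors. It begins 37 bases before the start, and 11.9% of 32851 RefSeq promoters hold TTTATG on either strand. The first Elf5 promoter, at chr2:103412098, held no called peak. It has 3 CpG dinucleotides in its 300 bases and the second has 10, against a median of 7 over all promoters.

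**Figure D3:**
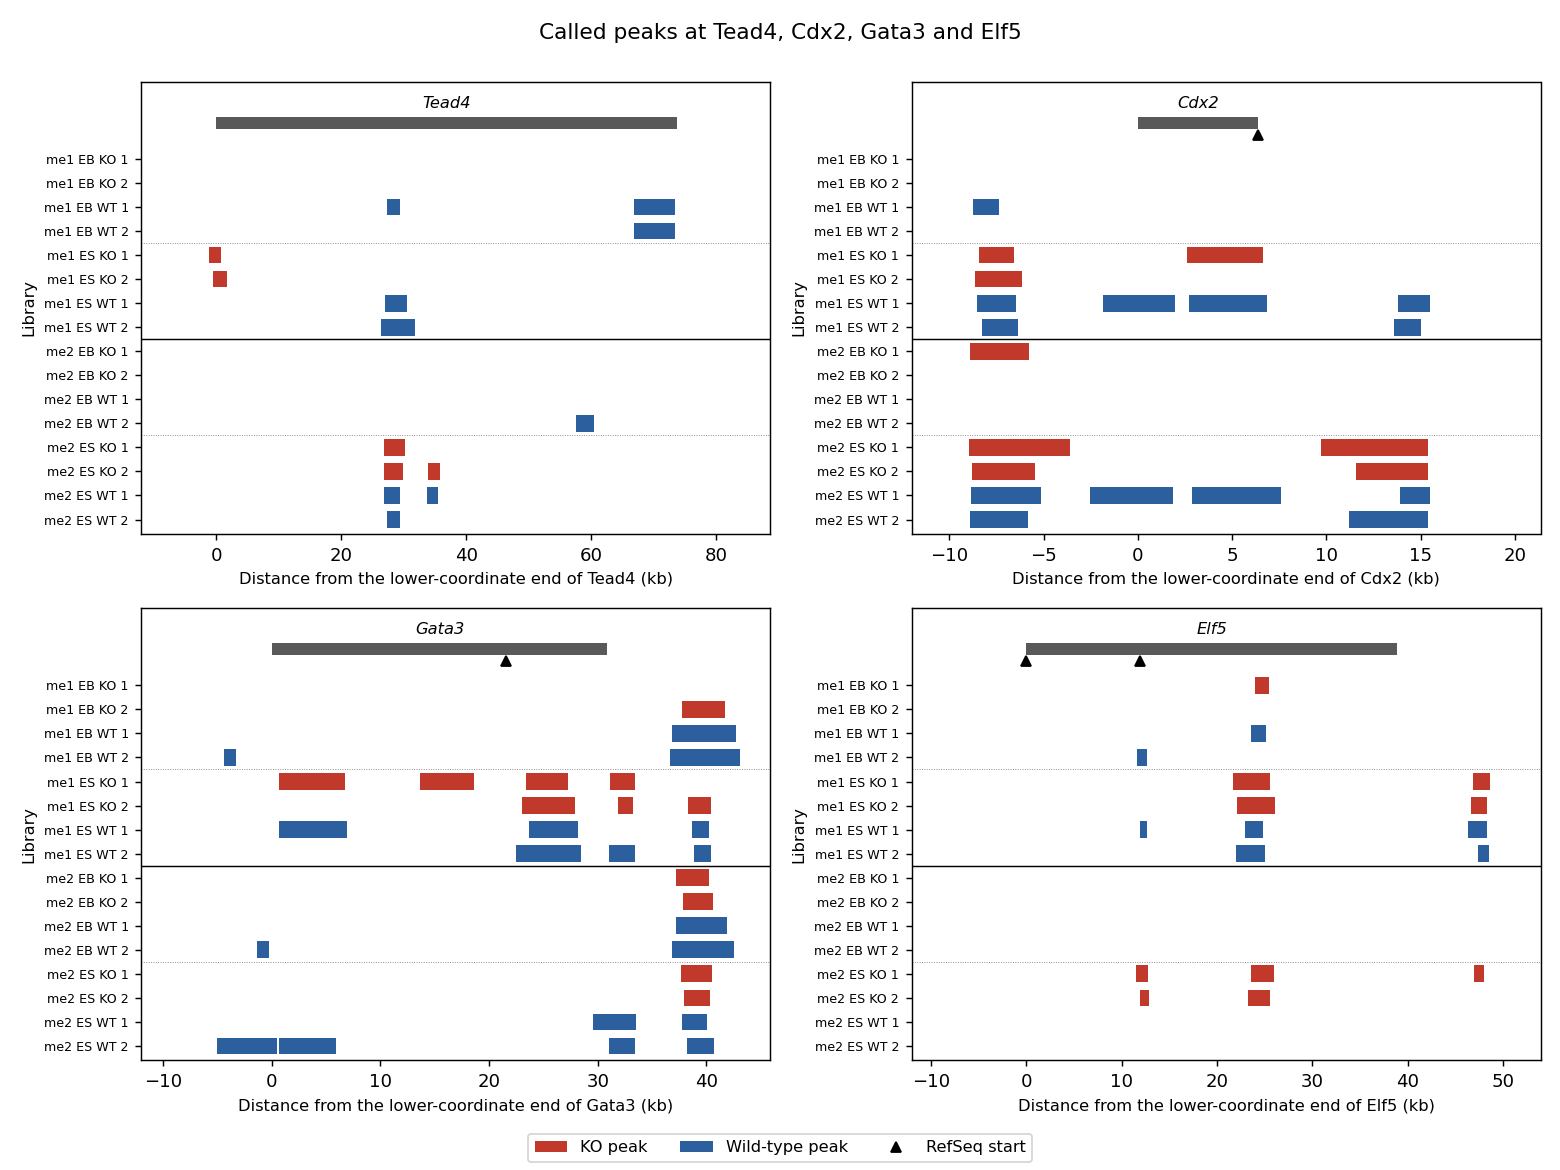
Called peaks (bars) in the 16 H3K4me libraries (rows, me1 above and me2 below the solid line, EB above ES) at Tead4, Cdx2, Gata3 and Elf5. The x axis is the distance from the lower-coordinate end of each gene in kb. Red bars are KO, blue bars are wild type, the grey bar is the gene span and triangles are RefSeq starts. At Tead4 the H3K4me1 peaks of EB wild type and of ES KO lie at opposite ends of the gene, and at Elf5 the H3K4me2 peaks are all in ES KO.

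Tfap2c (chr2:172545678-172558622), an AP-2 factor shared by trophoblast stem cells and germ cells, had the largest genotype difference with H3K4me2 in EB among the 9 genes. H3K4me2 covered 7.05 and 7.10 kb in EB KO, against 0 and 0 kb in EB wild type. ES libraries had 3.43 and 2.85 kb in KO, against 0 and 1.59 kb in wild type. KO was above wild type at both stages without overlap. The EB peaks were 7.05 and 7.10 kb wide, lay over the lower-coordinate end of the gene in the site chr2:172542638-172552388, and ranked at the 20th and 35th percentiles of score in their lists. Of merged H3K4me2 EB regions, 2.56% were in both KO and neither wild-type library. The ES peaks lay elsewhere, in chr2:172565198-172571506, 6576 bp above the gene. H3K4me1 covered 3.74 and 0 kb in EB KO, against 0 and 3.66 kb in EB wild type. The ES lengths were 2.48 and 0 kb in KO, against 8.995 and 1.61 kb in wild type. The H3K4me1 genotypes overlapped at both stages.

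Ascl2 (chr7:142966822-142969264), a basic helix-loop-helix factor and an imprinted gene expressed from the maternal allele in placenta, had the most regular pattern. A single site, chr7:142966057-142970430, spans the whole short gene and held all of its 12 peaks. H3K4me1 covered 0 kb in all 4 EB libraries. ES libraries had 1.60 and 1.71 kb in KO, against 1.83 and 2.54 kb in wild type. H3K4me2 was present in all 8 libraries, with 3.76 and 2.96 kb in EB KO, against 4.31 and 3.61 kb in EB wild type. In ES it covered 2.54 and 2.63 kb in KO, against 2.70 and 2.77 kb in wild type. Ascl2 thus carried H3K4me2 at both stages, with H3K4me1 called in ES and in no EB list. Its H3K4me2 peaks in ES were among the highest of their lists, at the 98th to 100th percentiles of score, and in EB they ranked between the 73rd and 95th.

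The Ascl2 promoter is shown because it was covered in 12 of 16 libraries, more than any other promoter of the 9 genes. It is chr7:142969215-142969514, minus strand, from RefSeq, GRCm38.p6.
Ascl2 promoter: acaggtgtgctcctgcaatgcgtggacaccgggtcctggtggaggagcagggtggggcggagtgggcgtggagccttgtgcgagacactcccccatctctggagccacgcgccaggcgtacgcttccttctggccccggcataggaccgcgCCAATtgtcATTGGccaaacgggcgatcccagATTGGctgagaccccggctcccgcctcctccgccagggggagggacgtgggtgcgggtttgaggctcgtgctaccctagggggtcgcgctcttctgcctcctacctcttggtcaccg
Capitals mark CCAAT or its reverse complement ATTGG, which begin 99, 90 and 67 bases before the start, and 37.4% of RefSeq promoters hold at least 1 such match on either strand. Ascl2 has 23 CpG dinucleotides in this window, the most of the 8 promoters found for the 9 genes. Gata3 has 22 and Cdx2 18, and their promoters were covered in 0 and 3 of the 16 libraries. The first Elf5 promoter has the fewest, 3, and was covered in 0. A relation between CpG content and coverage over the 8 promoters was not tested.

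Bmp4 (chr14:46383525-46390669), the ligand of the group, was marked at its locus in 14 of 16 libraries. H3K4me1 covered 0 and 5.24 kb in EB KO, against 0 and 3.44 kb in EB wild type. In ES it covered 5.06 and 4.04 kb in KO, against 3.12 and 3.71 kb in wild type. The ES genotypes did not overlap, and the EB genotypes did. H3K4me2 covered 1.39 and 9.28 kb in EB KO, against 7.70 and 1.99 kb in EB wild type. The ES lengths were 2.81 and 5.76 kb in KO, against 2.31 and 9.01 kb in wild type, and libraries of 1 group differed by more than the groups did. The main site, chr14:46396576-46400469, lies 5907 bp beyond the start side of the gene (start chr14:46390669, minus strand). It was present in 11 libraries, namely all 8 ES libraries, both H3K4me2 EB KO libraries and H3K4me2 EB WT 2. A site 1079 bp past the other end, chr14:46379727-46382446, was found in 4 libraries, all of them KO, namely H3K4me1 ES KO 1 and KO 2, H3K4me1 EB KO 2 and H3K4me2 ES KO 2. Of merged H3K4me1 ES regions, 4.75% were in both KO and neither wild-type library. The start itself lay in a peak in 5 libraries, within chr14:46384387-46393048. H3K4me1 peaks there were 3.53 kb in EB KO 2 and 3.44 kb in EB WT 2, while the H3K4me2 peaks, in EB KO 2, EB WT 1 and ES WT 2, were 7.03 to 7.71 kb wide and ran over most of the gene.

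Krt8 (chr15:101996711-102004342) and Krt18 (chr15:102028216-102032026) are neighbours on chromosome 15 that encode a type II and a type I keratin, the obligate partners of simple epithelial filaments. Their starts face each other, and 1 peak is listed for both. H3K4me1 covered 0 and 0 kb at Krt8 in EB KO, against 0 and 5.01 kb in EB wild type. At Krt8 in ES the same mark covered 3.81 and 3.99 kb in KO, against 2.997 and 0 kb in wild type. H3K4me2 covered 4.30 and 0.57 kb at Krt8 in EB KO, against 0 and 0 kb in EB wild type. In ES the Krt8 values were 3.35 and 3.52 kb in KO, against 2.80 and 2.60 kb in wild type. In all of these except H3K4me1 in EB, the KO libraries were above the wild-type libraries without overlap.

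Krt18 followed Krt8 in several lists. H3K4me1 covered 0 and 0 kb at Krt18 in EB KO, against 0 and 1.88 kb in EB wild type. ES libraries had 4.74 and 0.74 kb in KO, against 0 and 0.56 kb in wild type. The 0.74 kb of KO 2 and the 0.56 kb of WT 2 were edges of peaks between the 2 genes, 9262 bp or more below Krt18. The KO 2 peak ranked at the 0.27th percentile of score in its list. H3K4me2 covered 6.83 and 0.06 kb at Krt18 in EB KO, against 0 and 0 kb in EB wild type. The ES lengths were 6.66 and 4.94 kb in KO, against 3.97 and 4.37 kb in wild type. For H3K4me2 in EB, both keratins rest on KO 1 at their starts and on a single peak of KO 2, chr15:102013775-102018270, between the genes, which ranked at the 4th percentile of score in its list and reached only the outer edge of the 10 kb flank of each gene. Across the 16 libraries the covered lengths of Krt8 and Krt18 had the highest Pearson correlation of the 36 pairs among the 9 genes, 0.68, a description over libraries that share mark, stage and list length and over neighbouring loci that share 1 peak. The lowest was -0.37, between Bmp4 and Tead4.

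The 2 keratin promoters are shown because both lay within peaks of all 4 H3K4me2 ES libraries and of no EB wild-type H3K4me2 library. Krt8 is chr15:102004293-102004592, minus strand, and Krt18 is chr15:102027966-102028265, plus strand, both from RefSeq, GRCm38.p6.
Krt8 promoter: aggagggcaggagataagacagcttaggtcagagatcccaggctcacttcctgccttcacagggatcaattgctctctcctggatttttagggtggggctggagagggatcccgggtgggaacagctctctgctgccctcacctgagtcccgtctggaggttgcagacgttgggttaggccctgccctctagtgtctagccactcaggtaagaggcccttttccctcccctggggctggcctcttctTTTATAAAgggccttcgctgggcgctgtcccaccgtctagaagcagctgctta
Krt18 promoter: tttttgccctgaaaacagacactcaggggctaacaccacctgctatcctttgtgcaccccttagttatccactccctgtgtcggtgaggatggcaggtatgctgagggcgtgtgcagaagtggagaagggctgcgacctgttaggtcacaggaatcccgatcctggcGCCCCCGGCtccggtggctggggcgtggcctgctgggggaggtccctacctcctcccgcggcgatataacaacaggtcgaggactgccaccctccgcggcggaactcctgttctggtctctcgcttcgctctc
In Krt8 the capitals hold TATAAA on both strands, as 2 overlapping matches at the RefSeq start, and 13.6% of RefSeq promoters hold TATAAA. In Krt18 they mark GCCNNNGGC, the letters searched for AP-2 factors such as TFAP2C, 83 bases before the start, which 16.6% of RefSeq promoters hold. The Krt8 promoter has 6 CpG dinucleotides and was covered in 9 libraries, and the Krt18 promoter has 17 and was covered in 6.

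**Figure D4:**
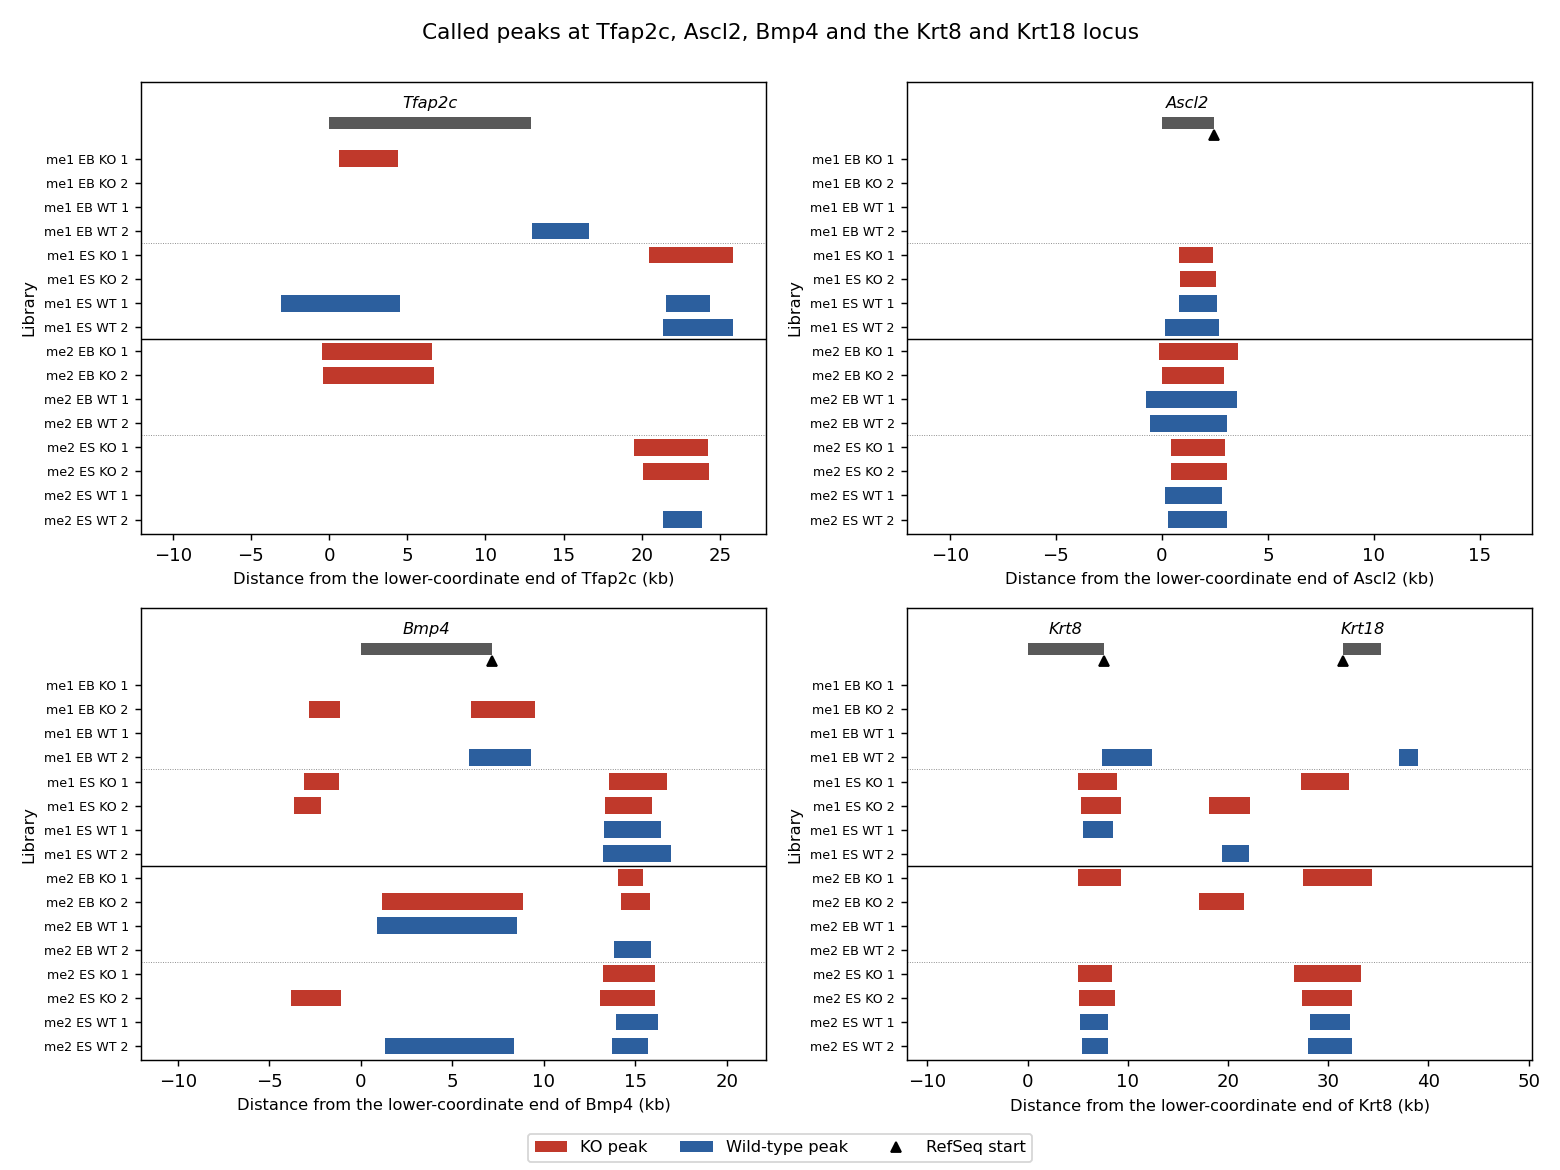
Called peaks (bars) in the 16 H3K4me libraries (rows, me1 above and me2 below the solid line, EB above ES) at Tfap2c, Ascl2, Bmp4 and the Krt8 and Krt18 locus. The x axis is the distance in kb from the lower-coordinate end of the gene, or of Krt8 in the last panel. Red bars are KO, blue bars are wild type, grey bars are gene spans and triangles are RefSeq starts. Tfap2c has H3K4me2 peaks over its lower end in both EB KO libraries and none there in EB wild type, and Ascl2 has 1 peak in each of 12 libraries.

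The stage comparison asked how the marks at these genes differ between EB and ES. Covered length over the locus was lower in EB for 8 of 9 genes, against 11872 of the 17491 genes with any coverage, with a median EB minus ES difference of -1.65 kb, against -0.47 kb over those genes. Cdx2 was the member that passed the test. It averaged 0.57 kb in EB and 7.93 kb in ES, a difference of -7.36 ± 2.75 kb (SD over the 4 combinations of mark and genotype), and it was lower in 4 of 4. Its p was 0.00154 in a two-sided exact permutation test of stage within mark and genotype over 1296 assignments, the smallest that test can give, and 0.0213 after Benjamini-Hochberg adjustment over all genes tested. The same test called 2366 genes (13.5%), 218 higher and 2148 lower in EB. Gata3 averaged 3.39 kb in EB and 9.33 kb in ES (adjusted p = 0.0540, exact permutation), and its difference of -5.94 kb was -0.30 kb with lists cut to equal length (adjusted p = 0.912). Elf5 averaged 0.49 kb in EB and 3.54 kb in ES (adjusted p = 0.0558, exact permutation). The other 6 genes had adjusted p of 0.173 or more. The call of Cdx2 was lost when H3K4me1 EB WT 2 was left out (-7.18 kb, adjusted p = 0.0514), with coverage within 2500 bp of a gene end (-2.21 kb, adjusted p = 0.525) and with lists cut to equal length (-2.77 kb, adjusted p = 0.214), each in the same exact test.

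Within a mark and genotype, EB and ES libraries of a gene often did not overlap in covered length. With H3K4me1 in KO, 0 genes were higher and 7 lower in EB, all but Tfap2c and Bmp4, against 7.71% higher and 43.2% lower over all genes with coverage. With H3K4me1 in wild type, Tead4 was higher and 4 genes (Cdx2, Gata3, Elf5 and Ascl2) were lower in EB, against 17.9% higher and 33.1% lower. With H3K4me2 in KO, 2 (Tfap2c and Ascl2) were higher and 3 (Tead4, Cdx2 and Elf5) lower, against 10.1% higher and 59.9% lower. With H3K4me2 in wild type, Ascl2 was higher and 4 (Cdx2, Gata3, Krt8 and Krt18) were lower, against 32.2% higher and 26.7% lower. By covered length, Ascl2 was thus lower in EB with H3K4me1 and higher in EB with H3K4me2, in both genotypes. Its H3K4me2 peaks were wider in EB but ranked lower by score, at the 73rd to 95th percentiles against the 98th to 100th in ES. The median width of all H3K4me2 peaks was also larger in EB lists, 2761 bp against 2166 bp.

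Counting gene-end peaks set these differences out gene by gene. A gene is called EB-only when both EB libraries and neither ES library of a mark and genotype have a gene-end peak, and ES-only the other way round. EB-only calls were 2. Tead4 was EB-only with H3K4me1 in wild type, of 8 members with a peak there, where 9.02% of all genes with a peak were EB-only. Tfap2c was EB-only with H3K4me2 in KO, of 5 members with a peak, where 6.18% of all genes were. ES-only calls were 8. With H3K4me1 in KO, Tead4, Gata3, Ascl2 and Krt8 were ES-only, 4 of 8 members with a peak, where 23.4% of all genes with a peak were. With H3K4me1 in wild type, Gata3 and Ascl2 were, 2 of 8, where 16.4% of all genes were. With H3K4me2 in wild type, Krt8 and Krt18 were, 2 of 6, where 6.62% of all genes were. With H3K4me2 in KO, 0 of 5 members were ES-only, where 9.39% of all genes were. In the H3K4me1 KO pair of groups and in both H3K4me2 pairs, the ES lists also held more peaks in all. With H3K4me2 in wild type they held 24600 and 22615, against 14334 and 19246 in EB. The shares of all genes are therefore the level against which these counts stand.

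The genotype comparison asked how the marks at these genes differ between Prdm16 KO and wild type. Over all 4 combinations of mark and stage no gene of the 17491 passed the two-sided exact permutation test after Benjamini-Hochberg adjustment (0%), and 1029 genes (5.88%) had an unadjusted p under 0.05, 307 higher and 722 lower in KO. Among the 9 genes 2 had such an unadjusted p. Tead4 averaged 1.53 kb in KO and 4.16 kb in wild type, a difference of -2.64 ± 3.57 kb (SD over the 4 combinations), lower in 3 of 4, with an exact permutation p of 0.0417. This difference was -0.07 kb within 2500 bp of a gene end (p = 0.556) and -1.15 kb with lists cut to equal length (p = 0.417), in the same exact test. Ascl2 averaged 1.90 kb in KO and 2.22 kb in wild type, a difference of -0.32 ± 0.29 kb, lower in 3 of 4 with no coverage in the other, with an exact permutation p of 0.0463. Both had an adjusted p of 0.665. The Ascl2 difference was the same within 2500 bp of a gene end and with lists cut to equal length. Taken as a share of the covered length of each list, it had p = 0.454 in the same exact test. The median KO minus wild type difference was 0.29 kb over the 9 genes, against -0.14 kb over all genes tested.

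Within a mark and stage, KO and wild-type libraries did not overlap in covered length for 18 of 36 gene and set pairs. With H3K4me1 in EB, 0 genes were higher and 2 (Tead4 and Gata3) lower in KO, against 6.08% higher and 32.5% lower over all genes with coverage. With H3K4me1 in ES, 4 (Elf5, Bmp4, Krt8 and Krt18) were higher and 2 (Tead4 and Ascl2) lower, against 16.7% higher and 12.7% lower. For Krt18 there, the values of KO 2 and WT 2, 0.74 and 0.56 kb, were edges of peaks between the 2 keratin genes. With H3K4me2 in EB, 3 (Tfap2c, Krt8 and Krt18) were higher and 1 (Gata3) lower, against 5.75% higher and 54.9% lower. With H3K4me2 in ES, 4 (Elf5, Tfap2c, Krt8 and Krt18) were higher and 2 (Gata3 and Ascl2) lower, against 45.7% higher and 7.16% lower. The part of the library series in the H3K4me2 differences was not tested, and the values without its libraries are as follows. With ES KO 2 set aside, ES KO 1 had 4.73 kb at Elf5, against 0 and 0 kb in ES wild type, and 2.82 kb at Gata3, against 6.23 and 15.7 kb. With EB WT 2 set aside, both EB KO libraries still exceeded EB WT 1, which had 0 kb, at Tfap2c.

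Summed over the 9 genes, the covered length with H3K4me1 in EB was 5.13 and 8.35 kb in KO, against 15.5 and 26.8 kb in wild type. With H3K4me1 in ES it was 48.1 and 29.3 kb in KO, against 49.1 and 31.3 kb in wild type. With H3K4me2 in EB it was 29.5 and 22.7 kb in KO, against 15.7 and 13.7 kb in wild type, with 7.05 and 7.10 kb of the KO sums at Tfap2c. With H3K4me2 in ES it was 40.8 and 37.4 kb in KO, against 36.7 and 45.4 kb in wild type. The sums of KO were thus below wild type in 1 set, above it in 1 and overlapping in both ES sets. The lists themselves also differed in length, and their part in these sums was not tested. As shares of each list's covered length, the H3K4me1 EB sums overlapped (0.029% and 0.064% in KO, 0.049% and 0.102% in wild type). KO stayed above wild type with H3K4me2 in EB (0.075% and 0.058%, against 0.033% and 0.022%). The H3K4me2 ES shares were below wild type in KO without overlap (0.052% and 0.046%, against 0.056% and 0.077%). The H3K4me1 ES shares still overlapped. In each pair of groups the smallest possible p is 0.33 (exact permutation), so no single one of them can pass a test.

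**Figure D5:**
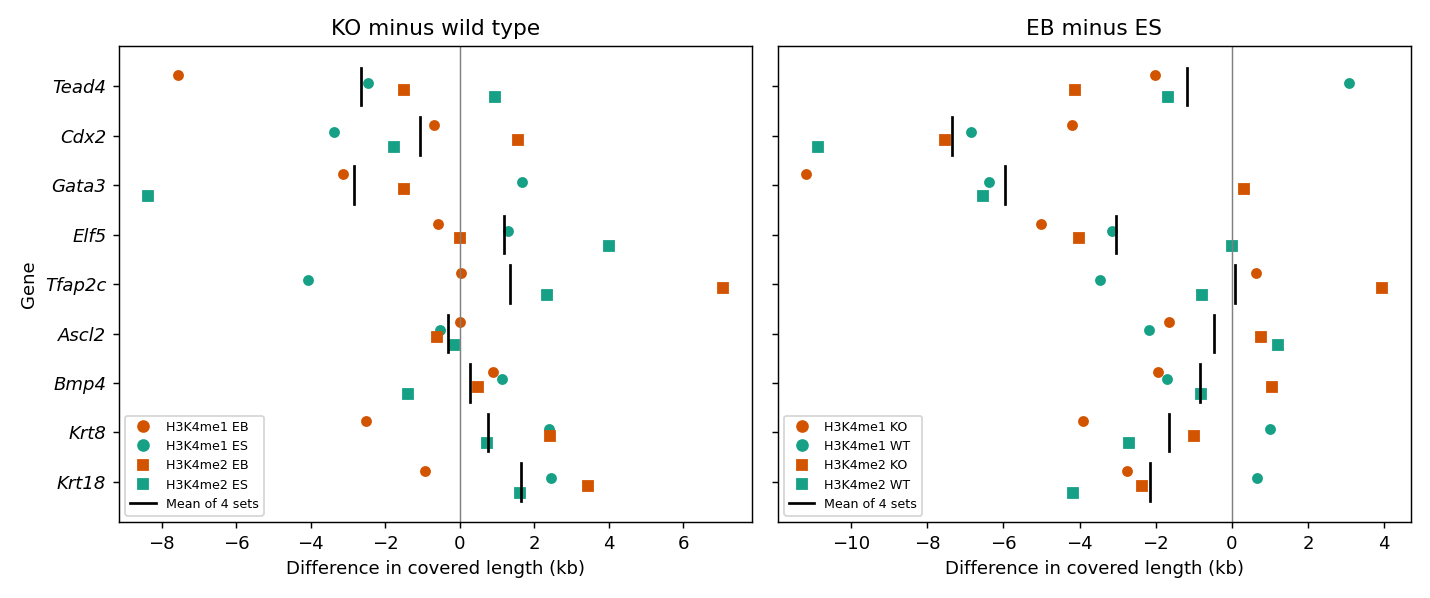
Difference in covered length (kb, x axis) at each gene (rows), KO minus wild type in the left panel and EB minus ES in the right panel. Circles are H3K4me1 and squares are H3K4me2. Orange and green are EB and ES in the left panel and KO and wild type in the right panel, and the black bar is the mean of the 4 values. All 4 values of Cdx2 are below 0 in the right panel, from -10.9 to -4.19 kb, and the H3K4me2 EB value of Tfap2c in the left panel is 7.08 kb.

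By the gene-end rule, a gene is KO-only when both KO libraries and neither wild-type library of a mark and stage have a peak, and wild-type-only the other way round. KO-only calls were 3. Tead4 and Bmp4 were KO-only with H3K4me1 in ES, 2 of 8 members with a peak, where 3.48% of all genes with a peak were, and 0 of 8 were wild-type-only, where 4.77% of all genes were. The Bmp4 call rests in KO 2 on 0.295 kb inside the window, and it was lost within 1000 bp, within 10 kb and over the gene span. The Tead4 call was lost over the gene span. Tfap2c was KO-only with H3K4me2 in EB, 1 of 6, where 3.29% of all genes were. Wild-type-only calls were 2. Tead4 was wild-type-only with H3K4me1 in EB, 1 of 5, where 14.3% of all genes were, and 0 of the 5 were KO-only, where 2% of all genes were. Gata3 was wild-type-only with H3K4me2 in ES, 1 of 6, where 1.91% of all genes were, a call that was lost within 10 kb. Tead4 therefore carries opposite calls with H3K4me1 at the 2 stages, at opposite ends of the gene. With peaks over the gene span, Elf5 was KO-only with H3K4me2 in ES, 1 of 8 members with a peak, where 3.04% of all genes were. With the 10 kb window, Krt8 and Krt18 joined Tfap2c as KO-only with H3K4me2 in EB, 3 of 7, where 2.82% of all genes were, but in KO 2 both rest on the shared peak between them.

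A wider list of 25 genes of trophoblast development and of the same pathways was described by the same calls. With H3K4me1 in EB, 0 were KO-only and 3 of the 12 with a gene-end peak were wild-type-only, where 2% of all genes were KO-only and 14.3% wild-type-only. These were Id2, an inhibitor of helix-loop-helix factors, Yap1, the coactivator of TEAD4, and Bmpr2, a type II BMP receptor. With H3K4me1 in ES, no gene of the 14 with a peak was called in either direction. With H3K4me2 in EB, Dlx3, a placental homeobox factor, was KO-only and Krt7, a keratin of trophoblast, was wild-type-only, of 16 with a peak, where 3.29% of all genes were KO-only and 2.63% wild-type-only. With H3K4me2 in ES, Lifr, the receptor for LIF, was KO-only, and Eomes and Yap1 were wild-type-only, of 18 with a peak, where 3.01% of all genes were KO-only and 1.91% wild-type-only. Yap1 was thus called wild-type-only in 2 of the 4 combinations, but both calls depend on the window. Its H3K4me1 EB call was lost within 1000 bp and over the gene span. Its H3K4me2 ES call was lost within 10 kb and over the gene span. The Lifr call was lost with every other window, the Eomes call within 10 kb and the Bmpr2 call within 1000 bp. The covered length of Yap1 averaged 5.56 kb in KO and 7.06 kb in wild type, lower in 4 of 4 (adjusted p = 0.837, exact permutation). Eomes, a T-box factor of trophoblast stem cells and mesoderm, averaged 3.22 kb in KO and 9.17 kb in wild type, lower in 4 of 4 (exact permutation p = 0.0293, adjusted p = 0.665).

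Between the stages, 5 of the 24 wider-list genes with any coverage passed the covered-length test, which called 13.5% of all genes, and Tpbpa, a spongiotrophoblast marker, had no peak. Krt19, a keratin of simple epithelia, averaged 4.64 kb in EB and 1.42 kb in ES (adjusted p = 0.0363, exact permutation), higher in 4 of 4 combinations. Peg10, an imprinted gene needed for the placenta, averaged 0.60 kb in EB and 9.57 kb in ES (adjusted p = 0.0213, exact permutation), lower in 4 of 4. Gata2, a close relative of GATA3, averaged 0 kb in EB and 2.41 kb in ES (adjusted p = 0.0213, exact permutation). Esrrb, an orphan nuclear receptor shared by ES and trophoblast stem cells, averaged 3.65 kb in EB and 12.1 kb in ES (adjusted p = 0.0346, exact permutation). Fgfr2, the receptor through which FGF4 sustains trophoblast stem cells, averaged 2.48 kb in EB and 8.59 kb in ES (adjusted p = 0.0363, exact permutation). Over the wider list the median difference was -1.28 kb, against -0.47 kb over all genes tested, with 1 gene higher and 4 lower among those that passed.

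Gene-end calls of the wider list followed in part. Peg10 was ES-only with both marks and in both genotypes. Krt7 was EB-only with H3K4me1 in KO and in wild type, and ES-only with H3K4me2 in KO. With H3K4me1 in wild type, Id2, Krt19 and Lifr were also EB-only, which with Krt7 makes 4 of 17 genes with a peak, where 9.02% of all genes were, and Peg10 was ES-only, where 16.4% were. With H3K4me1 in KO, Krt7 was the only EB-only gene of 14 with a peak, where 4.46% of all genes were, and Yap1 was ES-only beside Peg10, where 23.4% were. With H3K4me2 in KO, Dlx3 and Yap1 were EB-only, and Cdh3, which encodes P-cadherin, Krt7, Peg10 and Lifr were ES-only, of 19 with a peak, where 6.18% of all genes were EB-only and 9.39% ES-only. With H3K4me2 in wild type, Peg10 was the only call of 16 with a peak, where 6.62% of all genes were ES-only and 5.08% EB-only.

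For each member with a gene-end peak in 3 to 13 libraries, the genes whose covered length at the locus was most alike over the 16 libraries were found by Pearson correlation. Ascl2 was most like Adamts1 and Cntd1 (0.94 each), and Cdx2 was most like 1700012P22Rik (0.93) and Sh3gl2 (0.92). Tead4 was most like Ntrk2 (0.90) and Tmem108 (0.88), and Tfap2c most like Zfp428 (0.91) and Zfp513 (0.88). Krt18 was most like Frat2 (0.90) and Fam222a (0.89), Gata3 most like Odf3b (0.85) and Pdyn (0.83), and Krt8 most like Meis1 (0.81) and Nthl1 (0.77). Bmp4 had the weakest match, with Fbxo9 and Pcna (0.74 each). None of these 16 genes is another of the 9 members. They are the highest values among all genes over 16 libraries that share marks, stages and list lengths, and serve as a description only.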

How the data were processed

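Each library had a peak list that the authors deposited, with positions and a score per peak. The score is the authors' own. The sources used here state neither its unit nor the control library or depth scaling used. The submitters' processing notes name the mm10 build and, among their tools, MACS2, HOMER 4.10, Bowtie2, deepTools, SAMtools 1.5 and bedtools. Genes and promoters came from RefSeq tables of GRCm38.p6, which shares mm10 coordinates. Exon, intron and UTR were not resolved. Promoters were found for 7 of the 9 genes.

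Peaks were counted with an overlap of at least 1 bp, with Python 3.11.15, numpy 2.4.6 and pandas 2.3.3, after the 1 mitochondrial peak of each list was set aside. Shares of all genes are over genes with a peak in at least 1 of the 4 lists compared. Covered length was tested by exact permutation of libraries within each of 4 sets, over all genes, and the method was tested on simulated data. Replicate lists shared 0 or 1 identical peaks, so none was a copy.

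The named genes are the 9 members, genes of the wider list with a call, the 2 most alike genes per member and genes under a member's peak. Esrrb, Fgfr2 and Gata2, called by the stage test, and marker genes of the label check were named after their values were seen. The members and lists were chosen with earlier results of these data known. Alternatives were other windows (1000 bp, 10 kb and the gene span), the higher-scoring part of each list, equal list lengths, shares of covered length, each library left out, the other library series left out and a replicate block.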

Additional observations from a re-analysis of the deposited data

Results flagged for a closer look

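Tead4 showed opposite KO differences at the 2 stages with H3K4me1. Within 2500 bp of a gene end, the covered length in KO minus wild type was -2.30 kb in EB and 2.01 kb in ES, and the EB difference minus the ES difference was -4.30 kb. Both KO libraries were below both wild-type libraries in EB and above them in ES. The gene was singled out for this pattern, so the difference between stages is a description. An exact permutation over 36 assignments gave p = 0.0556, the smallest it can give. That p carries no weight, because the gene was chosen by the same values. Over the whole locus, KO was below wild type at both stages.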

How the results depend on the processing

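The genotype test called 0 genes as reported and under every alternative run. KO-only calls, 3 as reported, were 0 in the higher-scoring part of each list and 1 with equal list lengths. Wild-type-only calls, 2 as reported, were 1 with the 10 kb window, and 0 both in the higher-scoring part and with equal lengths. EB-only calls, 2 as reported, were 1 with the 10 kb window, 1 over the gene span, 0 in the higher-scoring part and 1 with equal lengths. ES-only calls, 8 as reported, were 4 in the higher-scoring part and 4 with equal lengths. The 18 gene and set pairs without overlap became 10 within 2500 bp of a gene end, 6 in the higher-scoring part and 9 with equal lengths. Leaving out each library in turn gave 3 to 5 KO-only, 2 to 4 wild-type-only, 2 to 4 EB-only and 8 to 10 ES-only calls, 18 to 21 pairs without overlap, 0 to 0 genes in the genotype test and 1874 to 2425 in the stage test. The stage test called 2366 genes as reported, and 0 within 2500 bp of a gene end, in the higher-scoring part, and with equal list lengths. It called 1522 genes without the 2 libraries of the other series. The labels do not say whether same-numbered libraries belong together. Their deviations from the group means correlated at -0.09 to 0.07, which cannot show whether they share a culture or preparation. With the replicate number as a block the stage test called 0 genes, over 256 assignments with a smallest p of 0.00781, and the adjusted p of Cdx2 was 0.0940 (exact permutation). In the higher-scoring part Cdx2 differed by -3.16 kb (adjusted p = 0.140, exact permutation). Gata3 passed the stage test without H3K4me2 EB KO 1 (adjusted p = 0.0493) or H3K4me2 ES KO 2 (adjusted p = 0.0483), both by exact permutation, but its difference was -2.84 kb in the higher-scoring part (adjusted p = 0.140) and -2.45 kb within 2500 bp of a gene end (adjusted p = 0.136). The Tead4 genotype difference was -0.88 kb in the higher-scoring part (exact permutation p = 0.472). Elf5 has no value within 2500 bp of a gene end. The sign of the genotype difference turned in 8 of 22 alternatives for Bmp4, and of the stage difference in 6 of 22 for Tfap2c. The causes of these changes were not tested, and unknown depth limits every comparison of list lengths.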
